A study of Mus musculus with 2 samples.

Results

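The posterior Hoxa genes, Hoxa9, Hoxa10, Hoxa11 and Hoxa13, lie side by side on mouse chromosome 6, and their DNA methylation was described in wildtype (wt) mouse embryonic fibroblasts (MEFs) and in MEFs that lack oestrogen receptor β (βerko). All cytosine positions covered in both libraries within chr6:52172001-52230000 (mm9) were taken, which gave 368 of 826937 covered positions. The stretch was selected on the percent methylation of wt and βerko MEFs in these same data, in which it was known to differ. All values of that contrast are therefore a description, without a test.

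Hox genes encode homeodomain transcription factors that set position along the body and limb axes, and their order along the chromosome follows the order of their expression domains. The posterior genes are used in the hind trunk, the limbs and the urogenital tract. In many cell types, Hox clusters that are not in use are kept silent by Polycomb proteins, and the CpG-rich DNA of these clusters is often free of methylation. Hoxa9 also acts in blood progenitors, Hoxa10 and Hoxa11 in the uterus, Hoxa11 in the forearm and lower leg, and Hoxa13 in hand, foot and genital tubercle. Fibroblasts are known to keep Hox patterns of the body site they come from.

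The wt library came from C57BL/6 MEFs of wildtype genotype, and the βerko library from C57BL/6 MEFs of genotype ESR2 -/-, with the gene for the receptor knocked out. Both cell types were grown in the same medium without any treatment given in the labels, and age of the embryos is not given. Genomic DNA of 3 batches was pooled for each cell type, so there was 1 library per genotype, no replicate, and the spread between embryos or cultures is unknown. A difference between the libraries can therefore not be told apart from a difference between these MEF preparations. Reduced representation bisulfite sequencing (RRBS) measures no transcripts, so the cell type was not checked against markers, and percent methylation does not show whether Esr2 was disrupted.

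RRBS starts from short fragments made with MspI, an enzyme that cuts at CCGG. Bisulfite then turns unmethylated cytosines into uracil, so a base still sequenced as C counts as methylated. Percent methylation is the share of such reads at a position, and 5-methylcytosine and 5-hydroxymethylcytosine are not distinguished. In bulk DNA, a partial value can come from a share of cells, from 1 of the alleles or from neighbouring reads of mixed pattern. It can also come from only some of the pooled batches. These cannot be told apart. The 368 positions belonged to 329 of the 1612 CpGs in the stretch, or 20.4 %, and each lay within 35 bases of the end of an MspI fragment. They came from 116 such ends with up to 10 positions each, so positions that share an end share reads and are not independent. Read depth was listed for 12 of the positions, and the depth of the other 356 is unknown.

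The sequences at the most changed positions are shown because they carry the DMPs (differentially methylated positions, below 20 % methylation in one library and above 80 % in the other with more than 4 reads in both). They are from the mm9 genome, 5′ to 3′ on the plus strand, and capitals mark the CpGs covered in both libraries on either strand. The posterior Hoxa genes themselves run on the minus strand. The 5 stretches are, in order, a coding exon of Hoxa9 (chr6:52175713-52175773), a short piece of the 3′ untranslated region of Hoxa10 (chr6:52182095-52182124), an intron of Hoxa10 (chr6:52183033-52183088), a coding exon of Hoxa11 (chr6:52195036-52195191) and a stretch between genes beyond Hoxa13 (chr6:52220638-52220811), which holds the positions with the opposite change.
Hoxa9: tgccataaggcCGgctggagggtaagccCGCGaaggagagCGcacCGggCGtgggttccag
Hoxa10 3′ untranslated region: gCGcCGacaatgggacctaaggcttcCGgc
Hoxa10 intron: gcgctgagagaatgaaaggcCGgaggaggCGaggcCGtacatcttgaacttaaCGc
Hoxa11: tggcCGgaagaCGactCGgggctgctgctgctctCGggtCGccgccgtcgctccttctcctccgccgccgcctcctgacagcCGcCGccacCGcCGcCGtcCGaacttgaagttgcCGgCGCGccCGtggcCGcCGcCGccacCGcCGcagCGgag
beyond Hoxa13: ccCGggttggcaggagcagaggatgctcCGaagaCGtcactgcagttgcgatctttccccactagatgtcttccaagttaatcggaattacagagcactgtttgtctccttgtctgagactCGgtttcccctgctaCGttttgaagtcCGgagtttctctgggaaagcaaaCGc

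The posterior Hoxa genes were almost free of methylation in wt and partly methylated in βerko MEFs. From the first covered position to the end of Hoxa13, 340 positions from 105 fragment ends averaged 0.476 % methylation in wt and 25.0 % in βerko. In wt, 300 of them were listed at 0 % and the highest value was 25 %. In βerko, the median was 20 %. Among the 337 positions below 20 % in wt, the lower and upper quartiles in βerko were 5.56 % and 37.5 %. Methylation was higher in βerko at 308 of the 340 positions, lower at 2 and equal at 30. A gain of at least 20 percentage points was seen at 173 positions and a loss of that size at 0. Over the full stretch, which includes DNA beyond Hoxa13, 176 positions gained and 8 lost, beside 6.81 % of all covered positions in the series that gained and 10.4 % that lost. These shares are given as background only, since the same contrast chose the stretch.

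The gain was mostly partial. Of the 337 positions up to the end of Hoxa13 that were below 20 % in wt, 164 lay between 20 and 80 % in βerko, 9 lay above 80 % and 164 stayed below 20 %. Over all covered positions below 20 % in wt, 4.3 % lay between 20 and 80 % in βerko and 95.2 % stayed below 20 %. Of these 337 positions, 170 gained, beside 3.58 % of all covered positions below 20 % in wt, from which nothing is read for the same reason. The map of methylation along the locus shows wt values along the baseline under all 4 genes, with βerko values spread above them.

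**Figure D1:**
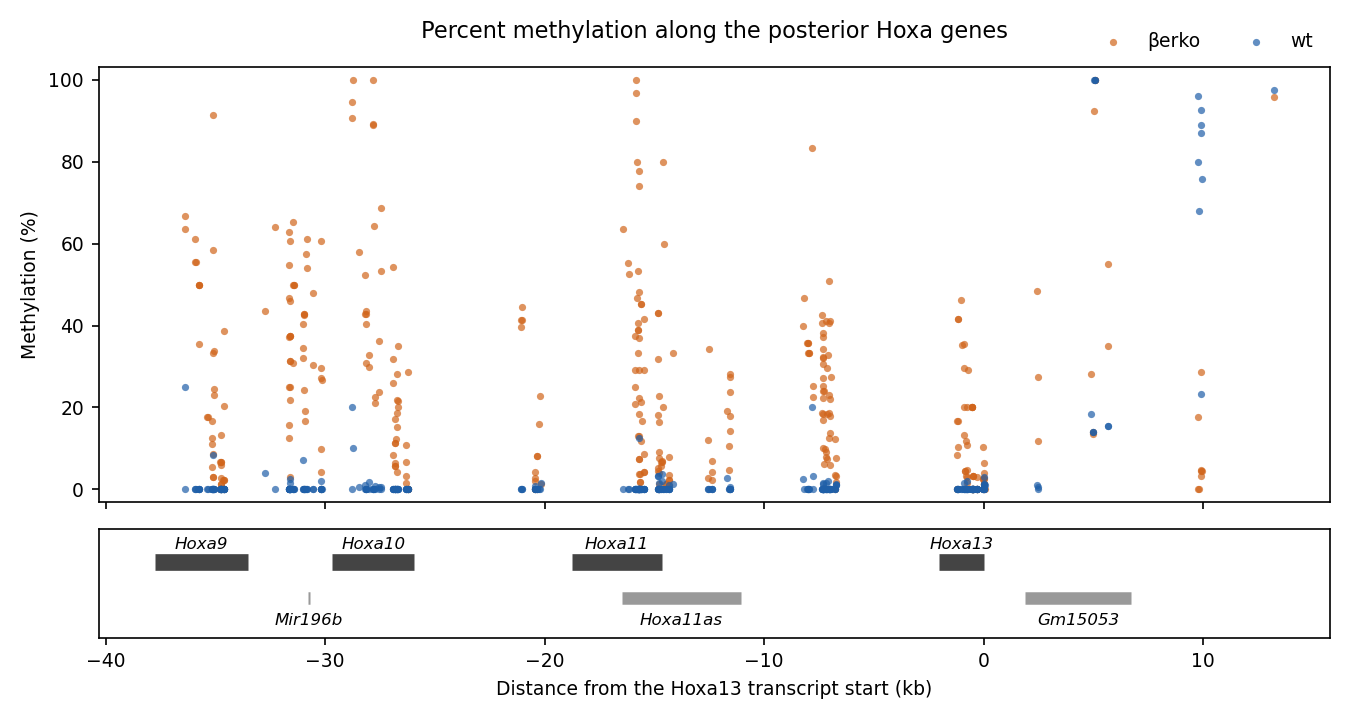
Percent methylation of the 368 covered positions against distance from the Hoxa13 transcript start in kb, with wt in blue and βerko in orange, and gene models beneath. Up to the end of Hoxa13 no wt value exceeds 25 %, while βerko values reach 100 %. To the right of Hoxa13, 8 wt values lie above 80 %.

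Hoxa9 (ENSMUSG00000038227.7, chr6:52173099-52177369) is the homeobox gene at the anterior end of the stretch. Its 42 positions averaged 0.794 % in wt and 22.8 % in βerko, and 17 of them gained. The 9 positions in its introns had a mean of 49.1 % in βerko, with a range of 17.7 to 66.7 %. The 17 positions in coding exons had a mean of 24.3 % and the 16 positions in the untranslated region a mean of 6.51 %. Thus low and high values lay within the same gene. The transcript start of the main gene model had no covered position within 500 bp, the nearest lying 760 bp away. A shorter annotated Hoxa9 transcript starts at 52176150, and the 18 positions within 200 bp of that start were all at 0 % in wt and had a mean of 6.16 % in βerko. Another Hoxa9 start, at 52180264 in the gap towards Hoxa10, had 2 positions within 200 bp, with a mean of 39.1 % in βerko.

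The largest gain in Hoxa9 was the DMP at 52175743, in the printed coding exon, with 0 of 7 reads methylated in wt and 21 of 23 reads in βerko. The exact 95 % intervals were 0 to 41.0 % and 72.0 to 98.9 %. Its neighbours in the same fragment differed widely. On the plus strand, the positions 52175724, 52175741 and 52175753 had 12.5 %, 58.3 % and 33.3 % in βerko, all with 0 % in wt. The next fragment begins at 52175758, where methylation was 8.33 % in wt and 8.62 % in βerko.

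Between Hoxa9 and Hoxa10, 45 positions averaged 0.387 % in wt and 36.5 % in βerko, the highest βerko mean of the 8 stretches into which genes and gaps divide the locus. Of these, 37 gained. In this gap lie the processed transcript RP23-329P9.11, whose 37 positions averaged 0.306 % in wt and 39.0 % in βerko with 32 gains, and the pseudogene 9930038K12Rik with 2 positions. The gap also holds the microRNA gene Mir196b, whose products are known to target Hox transcripts. No covered position fell within the Mir196b hairpin (chr6:52180080-52180164). The 3 nearest positions, 33, 46 and 65 bases from it, had 54.1 %, 61.0 % and 57.4 % in βerko, and all had 0 % in wt. On the other side, positions 164 and 174 bases away had 30.4 % and 47.8 %, again with 0 % in wt. All 5 flanking positions were thus higher in βerko. The mature sequences from RefSeq (GRCm38.p6) are shown to identify this gene, with the seed (bases 2 to 8) in capitals.
mmu-miR-196b-3p: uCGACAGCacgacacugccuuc
mmu-miR-196b-5p: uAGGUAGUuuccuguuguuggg

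Hoxa10 (ENSMUSG00000000938.9, chr6:52181196-52184938) had the highest βerko mean of the 4 genes by their main gene models. With all annotated transcripts Hoxa9, which then spans the gap too, had 29.9 % and Hoxa10 28.7 %. By the main model, its 50 positions averaged 0.715 % in wt and 32.7 % in βerko, and 31 gained. All 13 intron positions gained, with values from 21.2 to 100 % in βerko against at most 1.89 % in wt. The 4 positions in the 3′ untranslated region had a mean of 85.8 %, and the 33 positions in coding exons a mean of 18.4 %. Within Hoxa10 the values fell into a part of 22 positions (52182097 to 52183400) that all gained, with a mean of 55.8 %, and a part nearer the transcript start (52183941 to 52184655) in which 9 of 28 gained, with a mean of 14.5 %.

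Hoxa10 held 5 DMPs. In the 3′ untranslated region, 52182097 had 0 of 10 reads methylated in wt and 49 of 54 in βerko, and 52182122 had 1 of 10 and 54 of 54. Between them, 52182100 stood at exactly 20 % in wt and 94.4 % in βerko and so fell just outside the criterion. In the intron, 52183053 had 0 of 6 reads in wt and 28 of 28 in βerko. The next DMPs of the same fragment, 52183062 and 52183068, had 0 of 5 and 0 of 6 reads in wt, and 24 of 27 and 25 of 28 reads in βerko. The fourth position of that fragment, 52183086, had 0 % and 64.3 %. All 4 of these intron positions were at 0 % in wt.

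From Hoxa10 to Hoxa11, 15 positions averaged 0.161 % in wt and 15.5 % in βerko, and 5 gained. Of these 5, 4 came from 1 fragment end at 52189806 to 52189838, with a mean of 41.7 %.

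Hoxa11 (ENSMUSG00000038210.9, chr6:52192107-52196213) shares part of its DNA with the antisense transcript Hoxa11as, and methylation cannot be assigned to either. Its 59 positions averaged 0.448 % in wt and 29.2 % in βerko, and 31 gained. All 6 intron positions gained, with a mean of 42.4 %. The 36 positions in coding exons had a mean of 34.3 % and ranged from 1.92 to 100 %. The 13 positions in the untranslated region had a mean of 15.9 %. The single position of the 4 gene models that was lower in βerko was in this gene, at 52196098, with 1.56 % in wt and 0 % in βerko.

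Its 3 DMPs came from 1 fragment end in the printed coding exon. The positions 52195040, 52195047 and 52195052 each had 0 of 6 reads methylated in wt, and 30 of 30, 27 of 30 and 29 of 30 reads in βerko. Farther along the same fragment, 52195070 had exactly 80 % and 52195075 had 46.7 % in βerko, with 0 % in wt. From the other end of this fragment, on the minus strand, 7 positions had 12.96 to 53.2 %. The next fragment, whose 10 positions on the plus strand had 3.7 to 77.8 %, alternated between low and high values. At 52195167 methylation was 74.1 % in βerko, and at 52195173, 6 bases on, it was 7.41 %. High and low positions were therefore found within 1 read length.

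The gap from Hoxa11 to Hoxa13 held 80 positions, which averaged 0.520 % in wt and 22.3 % in βerko, and 40 gained. Of these, 32 lay in 1 run from 52202655 to 52203911, in which 49 positions were covered and the mean was 27.3 % in βerko. The highest value of the gap, 83.3 % at 52203032, stood beside 20 % in wt and was not a DMP for that reason. Just upstream of the Hoxa11 start, 52196269, 52196283 and 52196293 had 20 %, 80 % and 60 % in βerko, all 0 % in wt, and came from 1 fragment end.

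Hoxa13 (ENSMUSG00000038203.11, chr6:52208852-52210874), the most posterior gene of the cluster, had the lowest βerko mean of the 4 genes. Its 49 positions averaged 0.0992 % in wt and 10.6 % in βerko, and 12 gained. In βerko, 15 positions were listed at 0 % and the highest value was 46.2 %, at 52209863 in a coding exon with 0 % in wt. None was a DMP. The 12 gained positions lay in 1 run from 52209696 to 52210354, and none within 500 bp of the transcript start. Of these, 52210131, 52210332, 52210345, 52210347 and 52210354 stood at exactly 20 % in βerko and so only just met the criterion. All of them but 52210131 came from 1 fragment end and lay just past 500 bp from the start. The plot of methylation by gene and gap shows the wt points on the baseline in each gene and the βerko points of all 4 genes overlapping, with the lowest mean in Hoxa13.

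**Figure D2:**
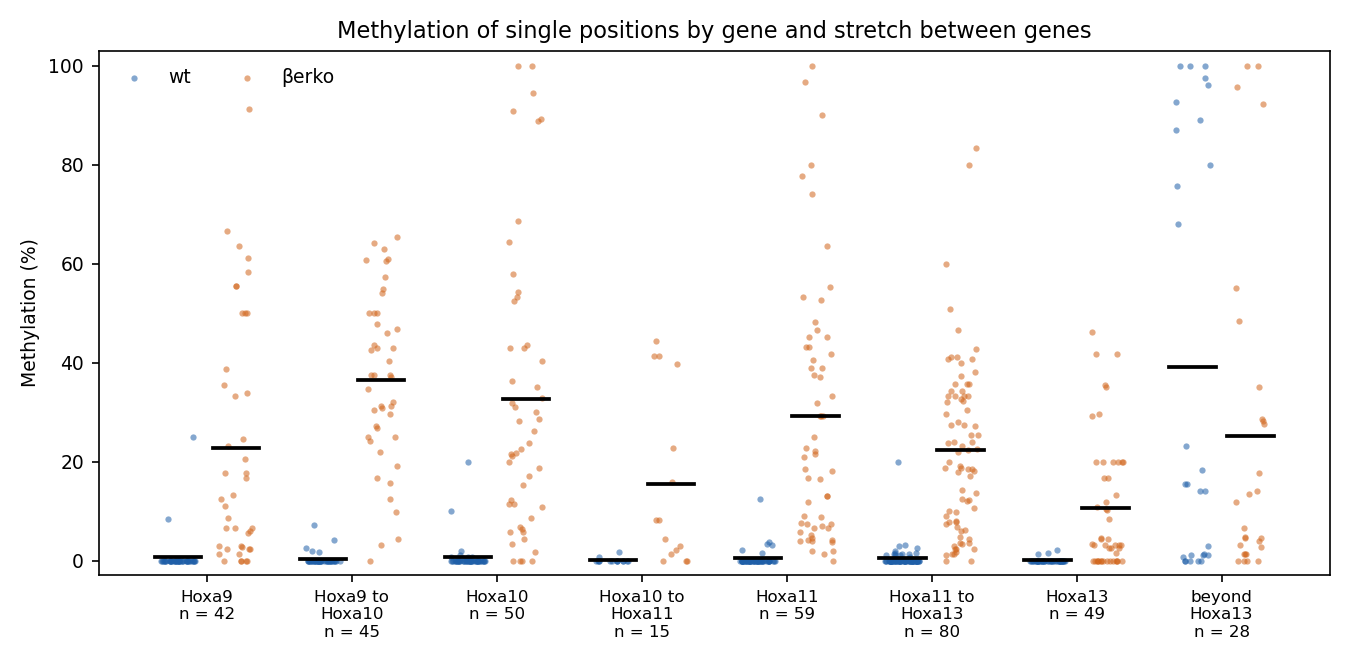
Percent methylation of single positions in each gene and each stretch between genes, with wt in blue, βerko in orange and black bars for the mean over positions. The βerko means are 22.8 % in Hoxa9, 36.5 % between Hoxa9 and Hoxa10, 32.7 % in Hoxa10, 29.2 % in Hoxa11 and 10.6 % in Hoxa13, and beyond Hoxa13 the wt mean is the higher of the 2.

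Positions near the main transcript starts had lower βerko values than those farther away. This split was chosen after the values were seen. Within 500 bp of the main start of the nearest of the 4 genes, 62 positions from 15 fragment ends averaged 0.390 % in wt and 8.80 % in βerko, and 9 gained. The 286 positions farther away, from 92 ends, had means of 0.504 % and 27.9 %, and 164 gained. At Hoxa13, the 26 positions within 500 bp had a mean of 1.84 % in βerko and reached 10.3 %, and 0 gained. At Hoxa10, 8 such positions had a mean of 6.42 %, with 1 gain. At Hoxa11, 28 such positions had a mean of 15.9 %, with 8 gains and values of up to 80 %. The start of Hoxa11 thus had gained positions and that of Hoxa13 had none. At Hoxa11, 3 of the gained positions, with 20 %, 80 % and 60 %, came from 1 fragment end of unknown depth. The 2 positions at the other end of that fragment, on the minus strand, had 1.28 % and 1.32 %. The remaining gains near this start came from other fragment ends. Other annotated starts differed among themselves within 200 bp. The βerko means were 39.1 % over 2 positions at Hoxa9 start 52180264 and 37.6 % over 6 at Hoxa10 start 52183323. They were 6.16 % over 18 positions at Hoxa9 start 52176150, and 13.3 % over 3 and 1.23 % over 1 at Hoxa10 starts 52190794 and 52190853. The other Hoxa13 starts had 2.70 % over 13.

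**Figure D3:**
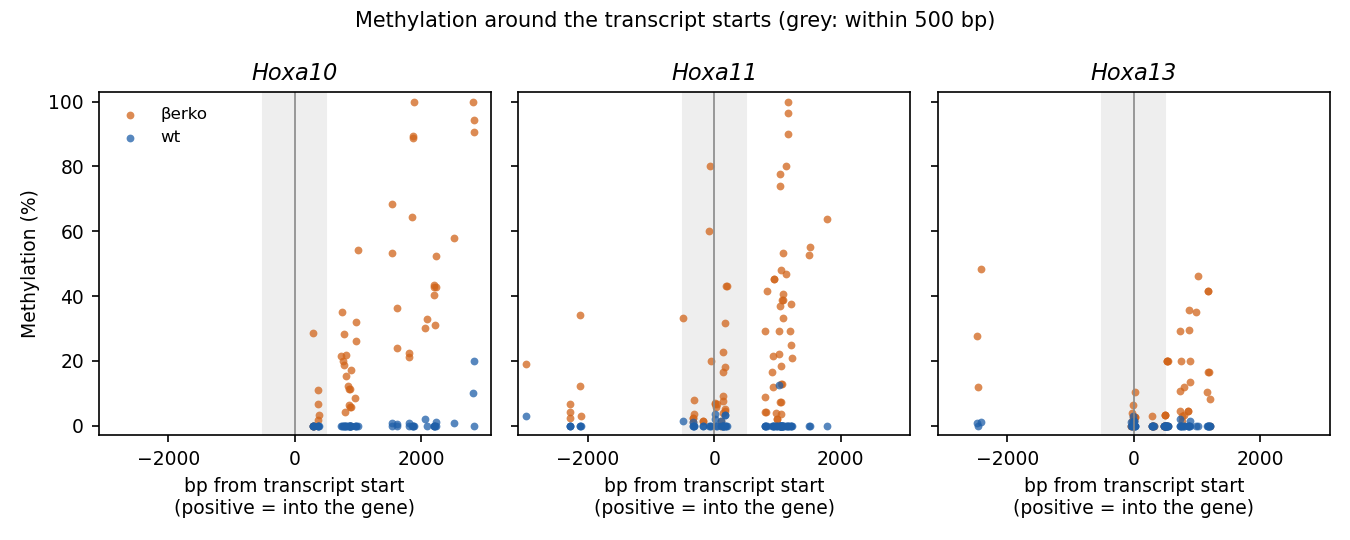
Percent methylation against distance from the main transcript start in bp, with positive distances inside the gene, for Hoxa10, Hoxa11 and Hoxa13 (wt blue, βerko orange, grey band within 500 bp). In the grey band the βerko values reach 28.6 % at Hoxa10, 80 % at Hoxa11 and 10.3 % at Hoxa13. The value of 80 % is from a fragment end of unknown depth. Hoxa9 has no covered position within 500 bp and is not drawn.

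Positions with few CpGs around them had higher βerko values than the rest. This split, too, was made after the values were seen, and it covers the 348 positions up to the Hoxa13 promoter. Where at most 9 CpGs lay within 100 bp, 58 positions had a mean of 42.5 % in βerko and 82.8 % of them gained. With 20 or more CpGs, 119 positions had a mean of 18.7 % and 40.3 % gained. The classes between, with 10 to 14 and 15 to 19 CpGs, had means of 22.1 % and 22.7 %, and 41.2 % and 50.7 % gained. Thus mainly the sparsest class stood apart. The densest class included positions of Hoxa13, with up to 42 CpGs, and the DMPs of Hoxa11, with 24 CpGs each and 90 to 100 % in βerko. The genes were not separated in this split. Over all covered positions below 20 % in wt, 22.8 % gained in the sparsest class and 1.17 % in the densest. Pearson's r between CpG number and βerko methylation was -0.32 and Spearman's rho was -0.36 over the 348 positions, which share reads and libraries. Distance from a main start and CpG density overlapped in part. The positions at 200 to 500 bp had a median of 27 CpGs within 100 bp and a βerko mean of 4.28 %, and those beyond 2000 bp a median of 13 CpGs and a mean of 29.8 %. The 35 positions within 200 bp had a median of 14 CpGs, near that of the farthest class, and a mean of 12.3 %. Their separate parts were not tested.

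Gained positions lay in 11 runs, chained at gaps of at most 500 bp, which held 169 of the 176 gained positions. Runs held 3 to 35 gained positions and were 20 to 1492 bp long. The longest, from 52179215 to 52180706 between Hoxa9 and Hoxa10, had 35 gained of 43 covered positions and a βerko mean of 35.7 %. Besides the 22 positions in Hoxa10 and the 4 upstream of it, in 1 other run all covered positions gained, that of 9 positions at the 3′ side of Hoxa9 (52174474 to 52175143, mean 54.2 %). The run from 52194430 to 52195416 in Hoxa11 held 27 gained of 42 positions, with a mean of 35.5 %. The other runs were at 52175741 to 52176266 in Hoxa9, 52196015 to 52196706 across the Hoxa11 start, and 52199309 to 52199328 between Hoxa11 and Hoxa13, with means of 14.4 %, 15.9 % and 22.3 %.

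Both strands of a CpG were covered at 39 CpGs, and their βerko values differed by a median of 6.94 percentage points. Both strands gained at 16 CpGs, 1 strand at 6 and neither at 17. The difference was at least 20 percentage points at 7 CpGs. Of these, 5 lay between 52179224 and 52179249 in the gap between Hoxa9 and Hoxa10, where the plus strand had 37.1 to 62.9 % and the minus strand 3.12 to 25 %. The 2 strands are read from different fragment ends, and their depths are unknown.

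Beyond Hoxa13, the pattern was mixed. The 28 positions there averaged 39.1 % in wt and 25.1 % in βerko, with 3 gains and 8 losses. The 8 positions next to the Hoxa13 start were at most 2.94 % in wt and at most 6.49 % in βerko. In the long non-coding transcript Gm15053 (chr6:52212769-52217597), 11 positions had means of 34.4 % and 47.8 %, and the 3 gains were here, at 52213290 (1.04 % and 48.5 %), 52213356 (0.690 % and 27.6 %) and 52216544 (15.4 % and 55 %). In the same transcript, 3 positions at 52215911 to 52215935 were at 100 % in wt and at 92.3 % or above in βerko. Partial gain, and full methylation in both libraries, thus lay within 1 transcript.

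All 8 losses lay in the printed stretch of 170 bp at 52220640 to 52220809, with means of 76.4 % in wt and 7.90 % in βerko. It held 3 hypomethylated DMPs. At 52220666, 24 of 25 reads were methylated in wt and 11 of 62 in βerko. At 52220786, 60 of 69 and 3 of 67 reads were methylated, and on the opposite strand of the same CpG, at 52220787, 76 of 82 and 3 of 63. The lower exact bounds in wt were at or above 76.7 % and the upper bounds in βerko at or below 29.5 %. Just outside the criterion, 52220640 stood at exactly 80 % in wt and 0 % in βerko, 52220809 had 75.7 % and 4.48 %, and 52220775 had 89.0 % and 28.6 %.

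In all, 9 hypermethylated and 3 hypomethylated DMPs lay in the locus, beside 0.237 % and 0.7 % of all covered positions. The 9 hypermethylated DMPs came from 4 fragment ends. They rested on 5 to 10 reads in wt and 23 to 54 reads in βerko, so the wt values are the less precise, with upper bounds from 30.8 to 52.2 %. The lower bounds in βerko were 70.8 % or above. These positions were picked by the same values, so nothing is read from the distance between the intervals. Without molecular identifiers, PCR copies of 1 molecule can count repeatedly, so the intervals cover counting error only. The deposited annotation of these 9 positions placed the DMPs of Hoxa9 and Hoxa11 at promoters and those of Hoxa10 not.

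**Figure D4:**
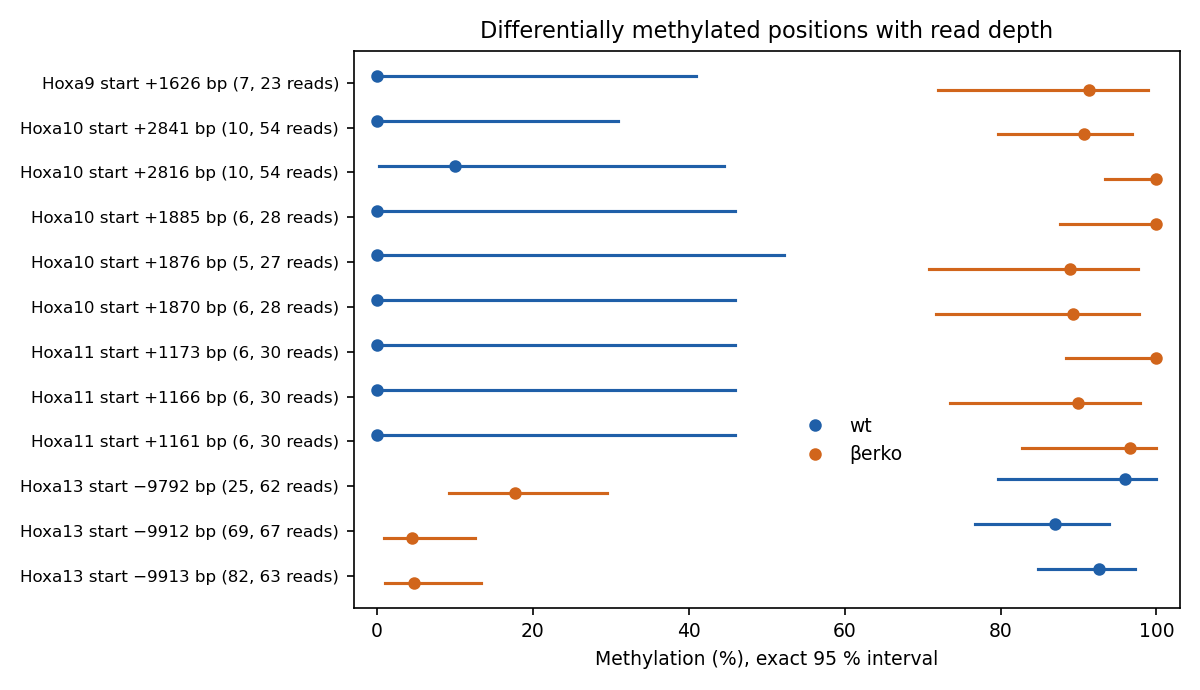
Percent methylation of the 12 DMPs with exact 95 % intervals, wt in blue and βerko in orange, labelled by distance from the nearest main transcript start and by the reads in wt and βerko. The positions were picked by these values, and the wt intervals at the 9 hypermethylated DMPs, on 5 to 10 reads, have upper bounds from 30.8 to 52.2 %.

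The oestrogen response element, the inverted repeat of GGTCA that oestrogen receptors bind, and the AP2 word GCCNNNGGC were searched on both strands within 100 bp of each position. The exact element with a spacer of 3 or 2 bases was near 0 of the 368 positions. With 1 mismatch and a spacer of 3, it was near 4 positions, or 1.09 %, against 0.637 % of all covered CpG positions, and all 4 gained. These 4 positions, 52175122 to 52175143, lie within a run in Hoxa9 in which all 9 covered positions gained. The sequences searched around them overlap almost fully, so they are not 4 separate observations, and nothing is read from their share or their gain. With 1 mismatch and a spacer of 2, the element was near 0 of the 368 positions and near 5679 of the 826925 covered CpG positions. The AP2 word, a form of the site bound by AP2 transcription factors, was near 131 positions, or 35.6 %, against 22.7 % of all covered CpG positions. It was near 31.8 % of the gained positions and 40.8 % of those that neither gained nor lost. A match is one of letters only.

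The anterior Hoxa genes are given side by side with the posterior genes, and the difference between them was not tested. Of the 6 anterior genes compared, 3 had a mean loss of at least 20 percentage points and 0 a mean gain. The 10 covered positions just before the stretch, at 52171593 to 52171768, were at 0 to 10.5 % in wt and 0 to 20.5 % in βerko. The first covered position of the stretch, 52174474, had gained. No position between 52171768 and 52174474 was covered, so where the gain begins is unknown.

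The 12 paralogues of groups 9 to 13 in the other clusters did not share 1 direction. Hoxd12 had the single mean gain of at least 20 percentage points, from 36.9 % in wt to 74.6 % in βerko over 33 positions. Hoxd9 and Hoxd10 had mean losses, from 94.2 to 4.07 % over 72 positions and from 58.5 to 19.5 % over 44. Hoxd13, like Hoxa13 a gene of the digits and genital tubercle, had means of 0.103 % and 5.80 % over 34 positions, and Hoxd11 had 4.42 % and 0.250 % over 66. In the Hoxc cluster the means in wt and βerko were 31.6 and 30.8 % for Hoxc9, 43.3 and 53.5 % for Hoxc10, and 17.3 and 8.49 % for Hoxc11. They were 43.4 and 31.7 % for Hoxc12, and 25.1 and 19.9 % for Hoxc13. Hoxb9 had 19.9 and 14.6 %, and Hoxb13 had 35.5 and 35.8 % over 9 positions. The mean differences of Hoxa9, Hoxa10, Hoxa11 and Hoxa13 were 22.0, 32.0, 28.8 and 10.5 percentage points.

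**Figure D5:**
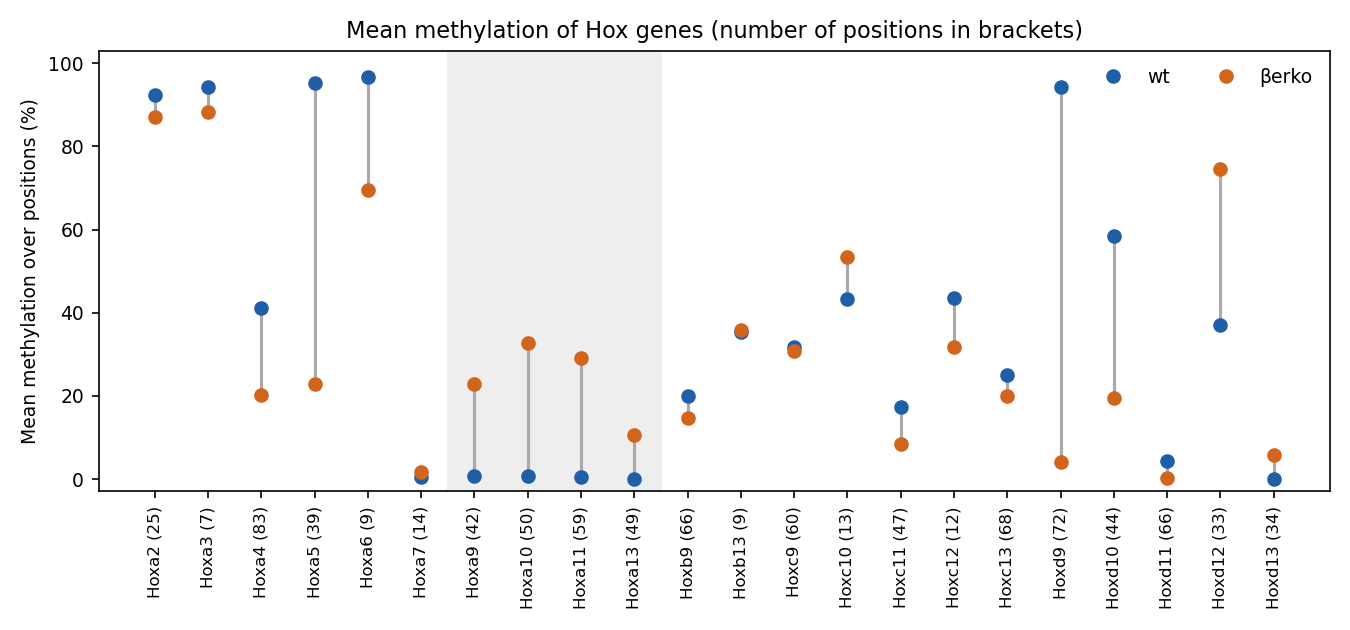
Mean percent methylation over the covered positions of each Hox gene model in wt (blue) and βerko (orange), with the number of positions in brackets and the posterior Hoxa genes on grey. The 4 posterior Hoxa genes have wt means of at most 0.794 % and higher βerko means, and Hoxd9 has the largest drop among the 12 paralogues, from 94.2 to 4.07 %.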

How the data were processed

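Genomic DNA of wt and βerko MEFs was cut with MspI, size selected, bisulfite converted and amplified, and 1 library per genotype was sequenced. Per the labels, the submitters' processing notes name CASAVA 1.4 and mm9. The authors mapped reads with the Genomatix Mining Station and annotated positions with RegionMiner. The authors deposited percent methylation for positions that both libraries covered, without depth. The tables of DMPs deposited by the authors also hold read counts per position and library, and methylated reads were taken as percent times reads, which came out whole to within 0.0024 reads.

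Positions were compared with NCBIM37 (mm9), where 826925 nuclear positions were CpG cytosines, and assigned to GENCODE gene models, 1 per gene with the longest coding sequence. A position changed at a difference of at least 20 percentage points, and runs had at least 3 changed positions with gaps of at most 500 bp. A promoter reached from 500 bp before to 100 bp after a start. Exact (Clopper-Pearson) intervals are at 95 %. Named positions were all DMPs, the ends of runs, the largest gain of each gene and, in Hoxa11, the only position lower in βerko. Hoxa9, Hoxa10 and Hoxa13 had no such position. Named genes were all those annotated in the stretch and the Hox paralogues of groups 9 to 13. Others, such as neighbours of DMPs, were chosen after their values were seen. The members and lists were chosen with earlier results of these data known. Alternatives were tried for merged strands, bins, thresholds, depth, gene models and gaps. Equal weight per fragment end was added after seeing the data. Procedures were tested on simulated data. Calculations used Python 3.11.15, NumPy 2.4.6, pandas 2.3.3, SciPy 1.17.1 and matplotlib 3.10.9.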

Additional observations from a re-analysis of the deposited data

How the results depend on the processing

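No paired analysis was possible because each genotype had 1 library, and with no replicate spread a mean was called moved at 2 percentage points or more and a count beyond 1.5 times. The mean difference over the locus, 21.6 percentage points, was 25.7 with equal weight for 500 bp bins, 18.5 as a median and 24.5 from the first to the last base of the 4 gene models, gaps between them included. The 176 gained positions became 79 at a change of at least 40 percentage points. The 9 hypermethylated DMPs became 2 with at least 10 reads in both libraries, 5 at 10 and 90 % methylation and 15 at 30 and 70 % without a depth limit, and the 3 hypomethylated DMPs became 1 and 6 at those last criteria. With all transcripts, the difference was 29.3 percentage points in Hoxa9 and 28.1 in Hoxa10, so that Hoxa10 no longer had the larger one. With 2000 bp added on each side it was 24.3 in Hoxa11. Runs of gain numbered 22 with gaps of at most 100 bp. The difference of Hoxb13 turned from 0.35 to -4.69 percentage points with 2000 bp added, and those of Hoxc10, Hoxc9 and Hoxd13 moved from 10.1 to 0.94, from -0.87 to -6.35 and from 5.70 to 10.5. The differences in the 4 posterior Hoxa genes kept their sign under every alternative run. With wt means of at most 0.794 % hardly any other outcome was possible, so nothing is read from this. Depth is unknown at 356 of the 368 positions.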
